A study of Caenorhabditis elegans with 9 samples.

Results

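The 6 measured pud genes of Caenorhabditis elegans, pud-1.1, pud-1.2, pud-2.1, pud-2.2, pud-3 and pud-4, were described in dissected intestines at 3 heme doses. They were taken by name, 6 of the 21776 genes in the count table. The family was chosen by the level of pud-4, which stood far lower at 2 µM than at 20 µM heme, so the values of pud-4 over the doses are a description and carry no test. The other 5 genes came in by their names only, although earlier results of these data were known. Their levels followed that of pud-4, with r of 0.913 to 0.985 over the 9 libraries. The choice therefore bears on them too, and their p-values and tallies with 2 µM are not free of it.

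The groups were adult N2 worms, the wild-type laboratory strain, and the labels name no transgene or deletion in any group. They differed in the heme content of the medium: 2 µM, 20 µM or 400 µM. Synchronized first-stage larvae (L1) were kept for 4 days, one generation, in liquid mCeHR2 medium at 20 °C, and each library was made by SMART-based reverse transcription and PCR amplification from the pooled intestines of 3 worms. There were 3 libraries per dose and 9 in all. Separate cultures are not stated for the libraries of a dose, and the p-values below therefore reflect the scatter of these 9 libraries alone, which may be technical.

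C. elegans cannot make heme and takes it up from food through the intestine. The pud genes are named for proteins found up-regulated in daf-2 mutants. DAF-2 is the worm insulin/IGF receptor, and when its signalling is low the FOXO transcription factor DAF-16 enters the nucleus and changes the expression of many genes, a large part of them in the intestine. The products of pud-1 and pud-2 are small soluble proteins known to form a heterodimer, and their cellular function is not established. In the genome pud-1 and pud-2 each have a pair of near-identical copies (pud-1.1 and pud-1.2, pud-2.1 and pud-2.2), while pud-3 and pud-4 are single-copy relatives.

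All 6 genes lie side by side on chromosome V, within 8893 bp from position 2322038 to 2330930 of the build WBcel235, and 0 other RefSeq genes overlap that span. From left to right the cluster holds pud-1.2 (2322038 to 2322566, minus strand), pud-2.2 (2323014 to 2323524, plus strand) and pud-3 (2324634 to 2325152, minus strand). It goes on with pud-4 (2326678 to 2327282, plus strand), pud-2.1 (2329444 to 2329954, minus strand) and pud-1.1 (2330429 to 2330930, plus strand). The genes thus form 3 divergent pairs. In each outer pair a pud-1 copy and a pud-2 copy point away from each other, with annotated starts 448 bp apart on the left and 475 bp apart on the right. In the middle pair pud-3 and pud-4 start 1526 bp apart. Each pud-1 and pud-2 copy has 2 exons, pud-3 has 1, and pud-4 has 2 annotated transcripts with up to 3 exons. The annotated exons of the Ensembl models add up to 456 bp for pud-1.1, 483 bp for pud-1.2, 465 bp for each pud-2 copy, 519 bp for pud-3, and 519 and 564 bp for the transcripts of pud-4. Of the 6 genes, pud-1.2 alone has an annotated 5′ untranslated region and pud-4 alone a 3′ one, so the other 5 starts are those of the coding sequence. The Ensembl annotation gives the symbol pud-2.2 to both pud-2 copies. The names used here are those of the count table.

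**Figure D1:**
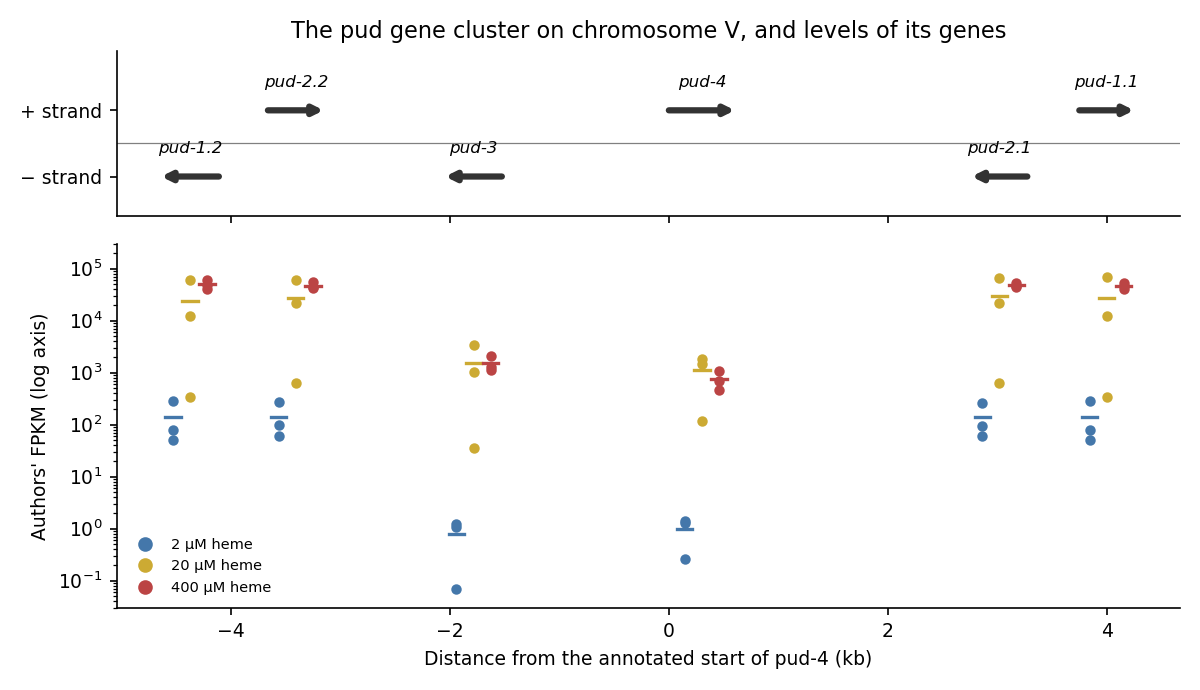
Map of the cluster with each gene's strand (upper panel) over its level in every library in the authors' FPKM on a log axis (lower panel), against distance from the annotated start of pud-4 in kb. Points are single libraries and bars are dose means; the 4 outer genes reach 39834 to 61043 FPKM in the 400 µM libraries, and the inner genes pud-3 and pud-4 lie between 460.3 and 2113 FPKM there.

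The libraries held 44385011 to 72960600 counts. The share of ribosomal RNA ranged from 3.58 to 14.8% of counts with 2 µM heme, from 2.31 to 42.1% with 20 µM and from 6.45 to 11.5% with 400 µM. All 12 intestinal markers, among them the GATA factor elt-2 and the esterase ges-1, were detected in every library, and together they took 1.84 to 19.4% of counts. Replicates 2 and 3 at 2 µM were near-identical, with r = 0.996 over genes, where other pairs of libraries from one dose had 0.834 to 0.971. Their counts still differed by more than counting noise, with a chi-square of 11.3 per degree of freedom, against 361 to 4694 for the other pairs. That excess does not show that they came from separate samples. They were kept as 2 libraries, and each SD, SE and p-value with 2 µM counts them so unless they are said to be summed. All 6 pud genes were among the 13434 genes that passed the filter on low counts.

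The pud genes stood at their lowest at 2 µM heme in every library. Together they took 0.0546, 0.0175 and 0.0111% of all counts at 2 µM (replicates 1, 2 and 3), 12.7, 3.56 and 0.105% in the 20 µM libraries, and 10.9, 9.11 and 8.49% at 400 µM. Counting error was small beside these steps, and the 95% Wilson interval in replicate 3 at 20 µM runs from 0.104 to 0.106%, an interval that covers counting error only. At 400 µM about 1 count in 10 came from these genes in each library. At 20 µM the 3 libraries were spread over more than 2 orders of magnitude, and in this summed share replicate 3 was, as a fold, nearer to the highest 2 µM library than to its own replicates. With the ribosomal RNA taken out of the total, the shares were 0.0566, 0.0204 and 0.0130% at 2 µM, 13.004, 5.52 and 0.181% in the 20 µM libraries, and 11.6, 9.88 and 9.60% at 400 µM. In bulk tissue, fewer cells of a type and less RNA per cell cannot be told apart.

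**Figure D2:**
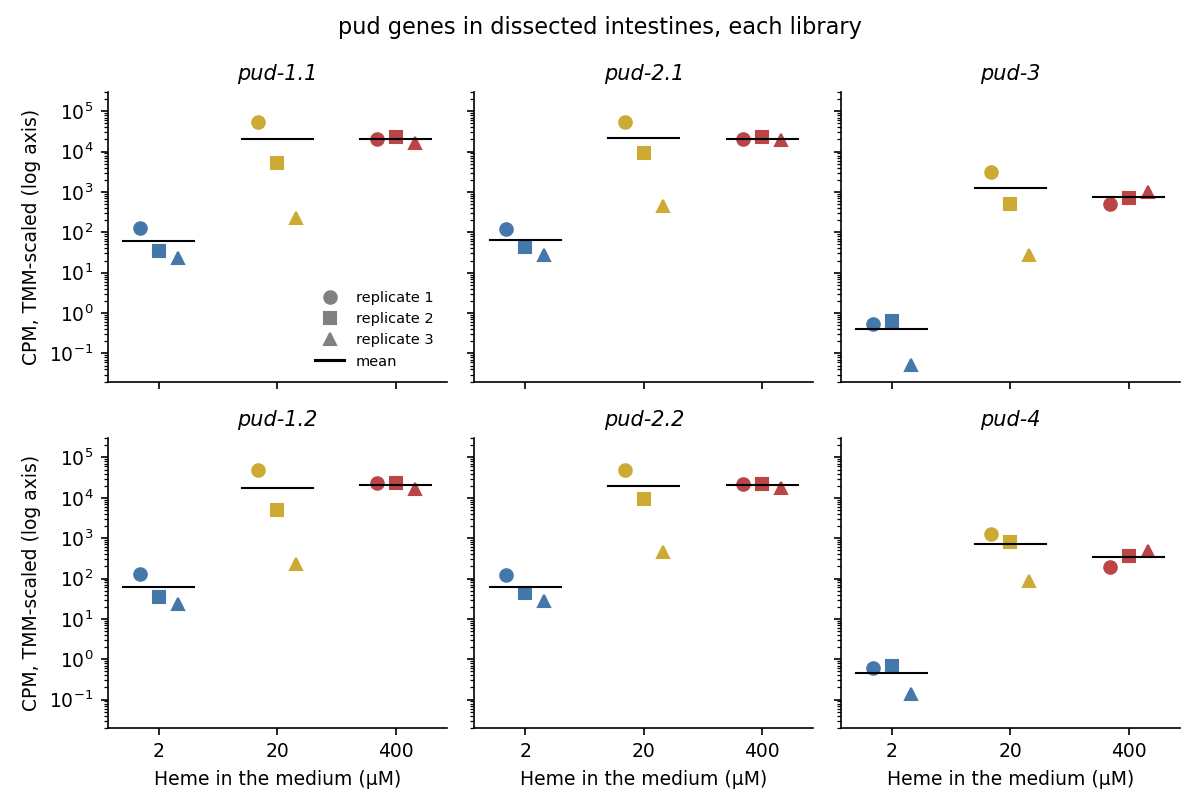
Level of each pud gene in every library, in TMM-scaled CPM on a log axis, against the heme dose in the medium in µM. Symbols mark the replicate number and bars the mean of the 3 libraries; the 2 µM libraries of every gene lie below all libraries of the other doses, and the 20 µM libraries are spread far more widely than those at 400 µM.

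Levels are given in CPM, the count relative to the library total after scaling by TMM. The pud-1 gene pair encodes one partner of the heterodimer. pud-1.1 had 126, 34.98 and 23.2 CPM at 2 µM (replicates 1, 2 and 3), 55410, 5109 and 231 CPM at 20 µM, and 20598, 23468 and 16364 CPM at 400 µM. Its mean was 61.4 ± 56.4 CPM at 2 µM, then 20250 ± 30547 CPM at 20 µM and 20143 ± 3574 CPM at 400 µM (SD, n = 3 libraries each). The 400 µM libraries were close together and the 2 µM libraries spanned 5.45-fold, while the 20 µM libraries spanned 239.8-fold. The twin copy pud-1.2 had 126, 35.2 and 23.1 CPM at 2 µM, 48241, 5104 and 229 CPM at 20 µM, and 23758, 23824 and 16347 CPM at 400 µM. Its values followed those of pud-1.1 library by library, though how reads matching both copies were divided is not stated.

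The pud-2 pair, which encodes the other partner, showed the same order of doses. pud-2.1 had 118, 42.7 and 28.1 CPM at 2 µM, 54806, 9281 and 439 CPM at 20 µM, and 20602, 23219 and 18892 CPM at 400 µM. Its mean was 62.9 ± 48.2 CPM at 2 µM, then 21509 ± 29173 CPM at 20 µM and 20904 ± 2179 CPM at 400 µM (SD, n = 3 each). The second copy pud-2.2 ranged from 28.2 to 119.1 CPM at 2 µM, from 442 to 49218 CPM at 20 µM and from 17563 to 22325 CPM at 400 µM. For both copies the lowest 20 µM library was replicate 3, which still lay 3.73-fold above the highest 2 µM library for pud-2.1. For pud-1.1 that gap was 1.83-fold.

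The unpaired relatives pud-3 and pud-4 were close to undetected at 2 µM. pud-3 had 0.530, 0.622 and 0.0506 CPM at 2 µM, which were 43, 43 and 3 counts, against 3162, 493 and 27.98 CPM at 20 µM and 499.5, 720.1 and 987 CPM at 400 µM. Replicate 3 at 2 µM thus sat at the floor of 3 counts used here. pud-4 had 0.603, 0.666 and 0.135 CPM at 2 µM, which were 49, 46 and 8 counts. It had 1292, 823 and 87.6 CPM at 20 µM and 192, 366 and 478 CPM at 400 µM. The lowest 20 µM library lay 45.0-fold above the highest 2 µM library for pud-3 and 132-fold above it for pud-4, a wider gap than for any pud-1 or pud-2 copy. Within 20 µM the highest and lowest libraries of pud-4 differed 14.7-fold, against 113-fold for pud-3.

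Per length, in the authors' FPKM, the 4 copies of pud-1 and pud-2 were among the most abundant transcripts of the heme-fed intestine. They held ranks 1 to 5 of all genes in every 400 µM library, with pud-1.2 first in replicates 1 and 2 and pud-2.1 first in replicate 3. In replicates 1 and 2 at 20 µM they held ranks 2 to 7, and in replicate 3 ranks 138 to 196. At 2 µM they held ranks 529 to 1062. The ranks of pud-3 ran from 53 to 905 at 20 µM and from 79 to 186 at 400 µM, and those of pud-4 from 92 to 357 and from 155 to 335. At 2 µM both ranked between 8587 and 13173.

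For 2 against 20 µM, the question was whether heme restriction during growth went with another level of these genes than the middle dose. The 5 genes taken by name each had their 3 libraries at 2 µM below all 3 at 20 µM, which was so for 4.46% of tested genes (1.65% without TMM scaling). The libraries of pud-4 were ordered likewise, by its choice. Here and in the tallies below, the 5 genes are not 5 independent observations, nor are they free of the choice by pud-4. Over the 9 libraries, r was 0.9997 and 0.9999 within the copy pairs and 0.985 for pud-3 with pud-4. Among the 5 genes taken by name, the log2 difference (2 over 20 µM) was −8.36 ± 1.97 for pud-1.1, −8.18 ± 1.92 for pud-1.2, −8.42 ± 1.76 for pud-2.1, −8.27 ± 1.72 for pud-2.2 and −11.57 ± 2.04 for pud-3 (SE). The mean of pud-1.1 was 329.5-fold lower at 2 µM by this fit and that of pud-3 3037-fold lower. For pud-4, the fitted difference was −10.61 ± 1.36 (SE), 1558-fold lower at 2 µM.

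Despite these sizes, 0 of the 5 passed the adjusted threshold of 0.05 in edgeR's quasi-likelihood test over all genes, in which 0.0149% of tested genes were called lower at 2 µM. The adjusted p by edgeR was 0.127 for both pud-1 copies, 0.116 for both pud-2 copies and 0.0971 for pud-3. At an unadjusted p under 0.05, 5 of 5 passed in the same edgeR fit, all lower at 2 µM, as were 5.34% of tested genes. DESeq2's Wald test called 5 of 5 (2.81% of tested genes were called lower) and limma-voom with sample weights also called 5 of 5 (1.21% called lower). Over these tools, the other settings and the fits with 1 library left out, the adjusted p of pud-3 ran from 2.95e-17 (DESeq2) to 0.305 (edgeR) and that of pud-1.1 from 2.47e-08 (DESeq2) to 0.432 (edgeR). Without replicate 1 of 20 µM, the library with the highest pud levels, the log2 difference was −5.44 for pud-1.1 and −9.32 for pud-3. In that fit pud-3 passed with an edgeR adjusted p of 0.0421, against 0.0892 to 0.305 for the other left-out libraries. The share of all tested genes called in the left-out fits was not worked out.

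**Figure D3:**
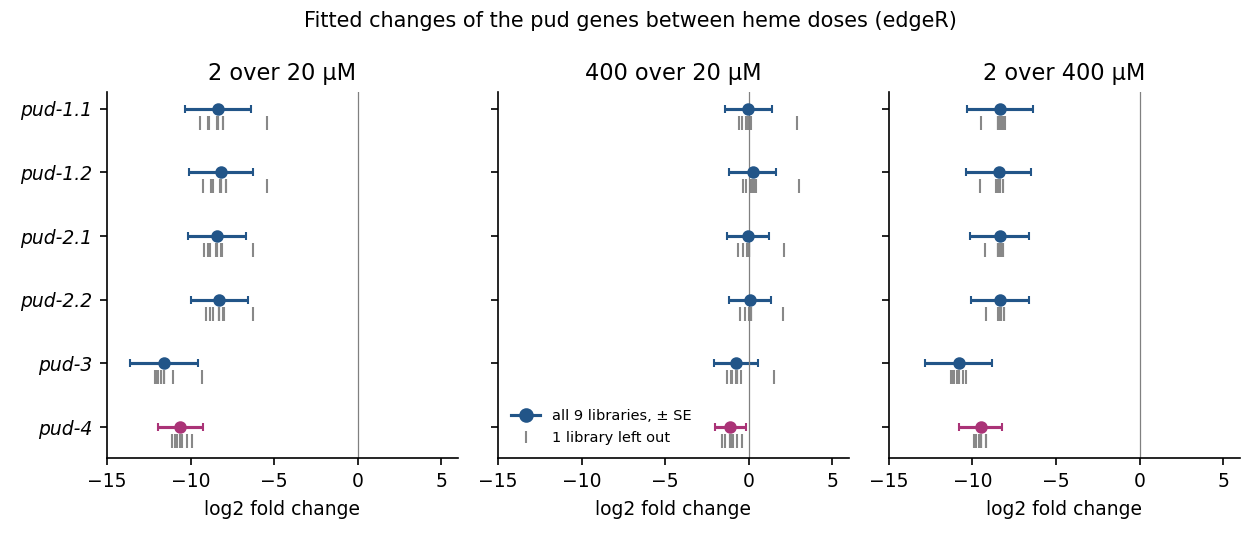
Fitted log2 differences of the pud genes between heme doses from edgeR (horizontal axis, first dose over second), with the standard error as a bar. Grey ticks are the fits with 1 library left out; differences with 2 µM lie between −5.44 and −12.13, and those of 400 over 20 µM lie on either side of 0 for every gene but pud-4.

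For 2 against 400 µM, the lowest dose against the highest, the 5 genes taken by name each had their 3 libraries at 2 µM below all 3 at 400 µM, as had 14.1% of tested genes. The same order in pud-4 rests on the 2 µM libraries for which it was chosen. The lowest 400 µM library was 130-fold above the highest 2 µM library for pud-1.1, 160-fold for pud-2.1, 803-fold for pud-3 and 289-fold for pud-4. The log2 difference (2 over 400 µM) was −8.36 ± 1.97 for pud-1.1, −8.44 ± 1.94 for pud-1.2, −8.38 ± 1.76 for pud-2.1, −8.33 ± 1.73 for pud-2.2 and −10.83 ± 1.98 for pud-3 (SE). For pud-4 it was −9.52 ± 1.31.

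With the spread shared over the 9 libraries, 0 of the 5 passed in this comparison either, beside 0.0223% of tested genes called lower at 2 µM, and 5 of 5 were lower at an unadjusted p under 0.05 in edgeR, beside 5.37%. The adjusted p by edgeR ran from 0.109 for pud-3 to 0.195 for pud-1.1. When edgeR was fitted to the 2 and 400 µM libraries alone, without the widely spread 20 µM libraries, 5 of 5 passed (1.06% of tested genes were called lower), with adjusted p from 0.0117 to 0.0155. DESeq2 called 5 of 5 (2.94% called lower), as did limma-voom (17.7% called lower). Without replicate 3 of 20 µM, edgeR called pud-2.1, pud-2.2 and pud-3 (adjusted p 0.0379, 0.0379 and 0.0339). Without replicate 1 of 20 µM it called pud-3 alone (adjusted p 0.0459). The share of all tested genes called in these left-out fits was not worked out. Over all settings and left-out libraries, the adjusted p of pud-3 ran from 3.14e-15 (DESeq2) to 0.416 (edgeR without replicate 2 of 2 µM).

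For 400 against 20 µM, heme excess against the middle dose, the libraries of the 2 doses overlapped for all 6 genes, while 24.1% of tested genes had no overlap in either direction. edgeR called 0 of the 5 at either an adjusted or an unadjusted p under 0.05, beside 0.551 and 18.5% of tested genes, and DESeq2 and limma-voom also called 0, beside 13.2 and 0.0% of tested genes. The log2 difference (400 over 20 µM) was −0.01 for pud-1.1, with a 95% interval of −3.24 to 3.23, and 0.25 for pud-1.2 (−2.93 to 3.44). It was −0.04 for pud-2.1 (−2.93 to 2.85), 0.06 for pud-2.2 (−2.78 to 2.90) and −0.74 for pud-3 (−3.72 to 2.24). Each of these intervals includes 4-fold differences in either direction. For pud-4 the fitted difference was −1.09 ± 0.91 (SE).

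The direction of this comparison depended on scaling and on which libraries were in the fit. The mean of pud-1.1 was 20143 CPM at 400 µM and 20250 CPM at 20 µM with TMM, but 22707 and 13133 CPM in the same order without it. Without replicate 1 of 20 µM, the log2 difference was 2.92 for pud-1.1, 2.11 for pud-2.1 and 1.502 for pud-3, and none of these passed in edgeR (adjusted p 0.190, 0.274 and 0.438). That was the widest move. For pud-1.1 and pud-2.1, each near 0, the sign also turned without replicate 1 or 3 of 2 µM or of 400 µM, with log2 differences of 0.0314 to 0.12 for pud-1.1. For pud-1.2 the sign turned without replicate 2 (−0.13) or replicate 3 (−0.31) of 20 µM.

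The copies of a pair had nearly equal counts, but not in every library. How reads matching both copies were counted is not stated in the sources used here, so the split within a pair is uncertain. The sum of a pair does not depend on how shared reads were divided between its copies, but it would on whether such reads were dropped or counted for each copy, and this also bears on the shares of all counts and the ranks given above. pud-1.1 held 49.995, 49.87 and 50.07% of the pud-1 counts at 2 µM, 53.5, 50.03 and 50.2% in the 20 µM libraries, and 46.4, 49.6 and 50.03% at 400 µM. In replicate 1 of 20 µM the share was above 50% (95% Wilson interval 53.4 to 53.5%), and in replicate 1 of 400 µM it was below it (46.4 to 46.5%). These intervals cover counting error only, not amplification or the division of shared reads. pud-2.1 held 49.76 to 49.98% of the pud-2 counts in the 2 µM libraries and in replicates 2 and 3 of 20 µM. Its share was 52.7% in replicate 1 of 20 µM and 48.8, 50.98 and 51.8% at 400 µM. Splits more than 1 percentage point from even thus occurred in replicate 1 of 20 µM and at 400 µM, in either direction. Summed over both copies, the log2 difference (2 over 20 µM) was −8.28 ± 1.97 for pud-1 (edgeR adjusted p 0.133) and −8.35 ± 1.77 for pud-2 (edgeR adjusted p 0.118). For 2 over 400 µM the sums gave −8.40 ± 1.98 (edgeR adjusted p 0.199) and −8.36 ± 1.77 (edgeR adjusted p 0.147).

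**Figure D4:**
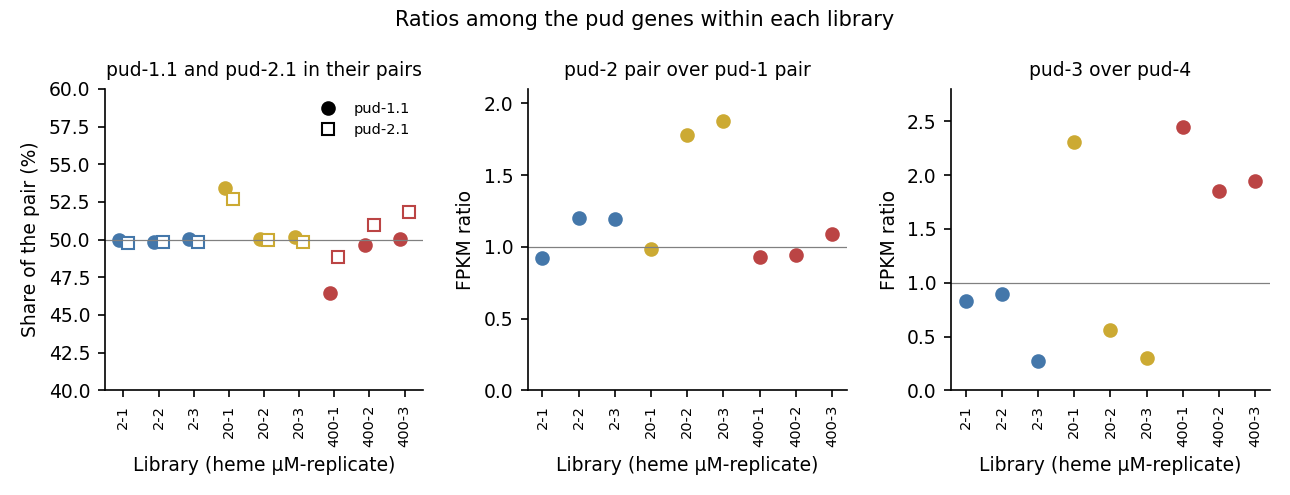
Ratios among the pud genes within each library, named on the horizontal axis by heme dose in µM and replicate: share of pud-1.1 and of pud-2.1 in its pair in percent (left), and FPKM of the pud-2 pair over the pud-1 pair (middle) and of pud-3 over pud-4 (right). Points are single libraries. Copy shares stay between 46.4 and 53.5%. The ratio of pud-3 over pud-4 is 0.269 to 0.899 at 2 µM and 1.85 to 2.45 at 400 µM. At 2 µM it rests on 3 to 49 counts per gene and library.

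The balance between the gene pairs also differed between libraries. The FPKM of the pud-2 pair over that of the pud-1 pair was 0.921, 1.199 and 1.195 at 2 µM, 0.984, 1.78 and 1.88 in the 20 µM libraries, and 0.932, 0.944 and 1.09 at 400 µM. It was near 1 in most libraries and stood apart in replicates 2 and 3 of 20 µM. pud-3 over pud-4, also in FPKM, was 0.835, 0.899 and 0.269 at 2 µM, 2.31, 0.564 and 0.301 in the 20 µM libraries, and 2.45, 1.85 and 1.95 at 400 µM. By FPKM, all 400 µM libraries had more pud-3 than pud-4 and all 2 µM libraries more pud-4 than pud-3. The 20 µM libraries fell on both sides, with the pud-3 excess in replicate 1. At 2 µM the ratio rests on 43, 43 and 3 counts of pud-3 against 49, 46 and 8 of pud-4. Counts so few and close do not set the 2 genes apart at that dose. These ratios contain pud-4 and were not tested. The FPKM of the pud-1 and pud-2 copies over that of pud-3 with pud-4 was 477, 134 and 683 at 2 µM, 51.6, 23.7 and 12.5 in the 20 µM libraries, and 139, 94.4 and 52.2 at 400 µM. All 3 libraries of the middle dose had lower values than the others. Replicate 1 of 20 µM (51.6) was only just below replicate 3 of 400 µM (52.2). The 2 µM values rest on the few counts of pud-3 and pud-4 given above. This ratio also contains pud-4 and was not tested.

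The libraries at 20 µM that differed in pud levels also differed in other measures, whose part in these results was not tested. Replicate 3, with the lowest pud levels at 20 µM, had the largest share of ribosomal RNA (42.1%), and replicate 1, with the highest, the smallest (2.31%). Replicate 2 lay between them in both measures, with 35.5% ribosomal RNA. The 10 pharyngeal markers together took 0.0386, 0.118 and 0.00179% of counts at 20 µM (replicates 1, 2 and 3), with 1, 0 and 4 of them at 0. They took 0.000123 to 0.00101% at 2 µM, with 5 or 6 at 0, and 0.0154, 0.000419 and 0.000685% at 400 µM, with 2, 5 and 3 at 0. The 12 hypodermal markers took 1.14, 0.0154 and 0.0153% at 2 µM, 0.0614, 0.0232 and 0.0171% in the 20 µM libraries, and 0.360, 0.0952 and 0.0480% at 400 µM, with 0 to 6 of them at 0. Replicate 1 of 2 µM, highest in hypodermal markers, also had the highest pud-1 and pud-2 levels of its dose. The 12 intestinal markers took 3.66, 14.8 and 15.2% at 2 µM, 16.01, 1.84 and 19.03% in the 20 µM libraries, and 9.22, 19.4 and 18.3% at 400 µM. Most of that range came from the yolk protein genes vit-2 and vit-6, which took 0.0861 to 17.5% of counts. The other 10 intestinal markers took 1.87, 1.98 and 2.001% at 2 µM and 1.88, 1.76 and 1.52% in the 20 µM libraries. At 400 µM they took 2.81, 2.82 and 3.68%. That sum was mostly asp-1, which had 10701 to 13273 CPM at 2 µM, 11728 to 21174 at 20 µM and 19001 to 27673 at 400 µM. The markers elt-2, ges-1 and ifb-2 went the other way, each with every 400 µM library below all libraries of the other doses. ifb-2 had 389 to 908 CPM at 2 µM, 601 to 1176 at 20 µM and 272 to 340 at 400 µM. For the remaining markers, asp-1 included, the 400 µM libraries overlapped those at 20 µM.

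The small heat shock protein genes hsp-16.1, hsp-16.2, hsp-16.41 and hsp-16.49, named after their values were seen, set 1 library apart at each of the lower doses. hsp-16.1 had 1209, 2.21 and 1.69 CPM at 2 µM (replicates 1, 2 and 3), 2930.2, 0 and 4.45 CPM in the 20 µM libraries, and 10.6, 65.9 and 62.8 CPM at 400 µM. In replicate 1 of 2 µM the 4 genes had 546 to 2286 CPM and in replicate 1 of 20 µM 1145 to 6266 CPM, while the other 2 libraries of each of these doses had 0 to 4.45 CPM and the 400 µM libraries 1.44 to 86.4 CPM. These are the libraries with the highest pud-1 and pud-2 levels of their doses. The part of this difference in the pud results was not tested.

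Summed over each list, markers of the gonad were highest at 400 µM, but not every member was. The sheath marker ceh-18 had 0.597, 0.108 and 0.561 CPM at 400 µM, against 2.09, 0.116 and 0.388 CPM at 2 µM. The sperm marker msp-3 had 27.4 CPM in replicate 2 of 400 µM, below the 46.4 to 52.4 CPM at 2 µM. The 10 germline and oocyte markers took 0.0113 to 0.0191% of counts at 2 µM, 0.00375 to 0.0104% at 20 µM and 0.0903 to 0.283% at 400 µM, with at most 1 at 0 in a library. The 9 sperm markers took 0.0414 to 0.0435% at 2 µM, 0.00213 to 0.00565% at 20 µM and 0.0453 to 0.461% at 400 µM, with at most 1 at 0. The 4 gonadal sheath markers took at most 0.00400% in any library, that one at 400 µM, and 0 to 3 of them were at 0. The 8 body wall muscle markers took 0.00533 to 0.0928% and the 8 neuronal markers 0.00478 to 0.0155%, with none and at most 1 at 0. Their part in the difference between 400 µM and the other doses was not tested.

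Of the genes next to the cluster, few were detected. The 3 nearest genes of the table on each side were read, and 2 of these 6 had a mean of at least 10 CPM at any dose; the other 4 had means of at most 0.389 CPM. nhr-115, which encodes a nuclear hormone receptor and lies 27238 bp to the left, had 107, 47.3 and 42.5 CPM at 2 µM, 7.36, 9.99 and 10.03 CPM at 20 µM, and 11.5, 5.13 and 6.92 CPM at 400 µM. Its mean was highest at 2 µM, where those of the pud genes were lowest. It did not pass in edgeR, with a log2 difference of 2.85 ± 0.52 for 2 over 20 µM (adjusted p 0.0971) and 3.07 ± 0.52 for 2 over 400 µM (adjusted p 0.0828). Its neighbour nhr-226, also a nuclear hormone receptor gene, averaged 15.6 CPM at 2 µM, then 6.12 CPM at 20 µM and 4.62 CPM at 400 µM, with edgeR adjusted p of 0.475 for 2 against 20 µM and 0.473 for 2 against 400 µM.

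None of the insulin pathway genes measured beside the pud family passed the adjusted threshold in edgeR. Of 16 genes of insulin signalling, 13 were tested, and edgeR called 0 in each of the 3 comparisons. Taking either direction, edgeR called 0.0744% of all tested genes when 2 and 20 µM were compared, 0.551% with 400 over 20 µM, and 0.104% between 2 and 400 µM. At an unadjusted p under 0.05, edgeR had 2 higher and 3 lower at 2 µM than at 20 µM, 1 higher and 3 lower at 400 µM than at 20 µM, and 1 higher and 2 lower at 2 µM than at 400 µM. In these comparisons 13.4, 18.5 and 10.6% of all tested genes passed at that threshold in either direction. DESeq2 called 3 of 13 for 2 against 20 µM (daf-16 higher at 2 µM, ins-18 and pptr-1 lower), 4 for 400 against 20 µM and 2 for 2 against 400 µM, and limma-voom called 0, 0 and 8. Of all genes with an adjusted p, DESeq2 called 7.49, 13.2 and 4.76% in the same order of comparisons and limma-voom 1.88, 0.0 and 27.3%. The median log2 difference (2 over 20 µM) of the 13 was −0.76, against 0.12 over all tested genes. daf-16, the FOXO factor of the pathway, had 43.4, 40.9 and 39.3 CPM at 2 µM, 12.1, 16.3 and 13.2 CPM at 20 µM, and 14.3, 23.4 and 18.6 CPM at 400 µM. Its mean was highest at 2 µM, where those of the pud genes were lowest. Its log2 difference was 1.57 ± 0.35 for 2 over 20 µM (edgeR adjusted p 0.119) and 1.13 ± 0.34 for 2 over 400 µM (edgeR adjusted p 0.324). ins-18, an insulin-like peptide, had 0 counts in each 2 µM library, against 5.35, 0.4996 and 0 CPM at 20 µM and 1.25, 0.144 and 0.405 CPM at 400 µM (edgeR adjusted p 0.237 for 2 against 20 µM). pptr-1, a phosphatase subunit that acts on AKT-1, had a log2 difference of −1.02 ± 0.36 (2 over 20 µM, edgeR adjusted p 0.293). For ist-1, the insulin receptor substrate gene, it was −1.97 ± 0.82 (edgeR adjusted p 0.352).

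Among genes known to rise with DAF-16 activity there were also no calls by edgeR. Of 28 such genes 25 were tested, edgeR called 0 of them in each comparison, and at an unadjusted p under 0.05 it had 1 higher and 2 lower at 2 µM than at 20 µM, 2 higher and 3 lower at 400 µM than at 20 µM, and 1 higher and 3 lower at 2 µM than at 400 µM. DESeq2, which gave an adjusted p for 16 of them, called 2 for 2 against 20 µM (gpd-2 higher at 2 µM, ctl-2 lower), 4 for 400 against 20 µM and 1 for 2 against 400 µM, and limma-voom called 4, 0 and 10. These counts stand beside the shares of all tested genes given above for each tool and comparison, 13.4, 18.5 and 10.6% unadjusted in edgeR and 1.88, 0.0 and 27.3% in limma-voom. Their median log2 difference was −0.99 for 2 over 20 µM, −1.35 for 400 over 20 µM and 0.65 for 2 over 400 µM, against 0.12, −0.03 and 0.02 over all tested genes. At the median for 2 over 20 µM stood sod-3 (SE 2.16), with at most 1.76 CPM in any library. The hsp-16 genes of the list rest on 1 high library at each of the lower doses. The glyceraldehyde-3-phosphate dehydrogenase gene gpd-2 averaged 603 ± 56.8 CPM at 2 µM, then 179 ± 74.9 CPM at 20 µM and 258 ± 14.7 CPM at 400 µM (SD, n = 3 each), with an edgeR adjusted p of 0.144 for 2 against 20 µM. The catalase gene ctl-2, which encodes a heme enzyme, averaged 179.6 ± 29.8 CPM at 2 µM, then 515 ± 38.6 CPM at 20 µM and 375 ± 87.4 CPM at 400 µM (SD, n = 3 each, edgeR adjusted p 0.151 for 2 against 20 µM). The log2 difference (2 over 20 µM) was −1.79 ± 0.73 for dao-3 and −3.62 ± 1.64 for the alcohol dehydrogenase gene sodh-1, with edgeR adjusted p of 0.345 and 0.381. Without replicate 1 of 20 µM, edgeR called gpd-2 for 2 against 20 µM. In the same fit it called 4 genes of this list and 2 of insulin signalling for 400 against 20 µM. The share of all tested genes called in that fit was not worked out, so these counts have no background beside them.

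Of 11 genes known to be repressed by DAF-16, 9 were tested, and edgeR had 0 at an adjusted or an unadjusted p under 0.05 in each comparison. DESeq2 called 0 of the 7 with an adjusted p in each, and limma-voom called 0 for 2 against 20 µM and for 400 against 20 µM and 3 for 2 against 400 µM, lower at 2 µM, a direction in which limma-voom called 17.7% of tested genes. The median log2 difference was −1.33 for 2 over 20 µM, −0.32 for 400 over 20 µM and −1.49 for 2 over 400 µM. Among them the yolk protein gene vit-5 had 94.3, 4596 and 4783 CPM at 2 µM, 34190, 16.9 and 6066 CPM at 20 µM, and 5110, 19670 and 7540 CPM at 400 µM. Its order over the 20 µM libraries differed from that of the pud genes, with replicate 2 lowest. The log2 difference (2 over 20 µM) was −2.17 ± 1.64 for dod-23, −1.92 ± 1.52 for dod-24 and −1.33 ± 1.07 for the insulin-like peptide gene ins-7, with edgeR adjusted p of 0.599, 0.618 and 0.623. These lists were drawn up from textbook knowledge with earlier results of these data known.

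The pud genes followed each other over the libraries. The following correlations are Pearson's r of log2 CPM over the 9 libraries and describe points that share library, depth and dose. The twin copies had r = 0.9997 for pud-1 and 0.9999 for pud-2. How reads matching both copies were divided is not stated, so these values do not show that the copies vary alike. For pud-1.1 r was 0.996 with pud-2.1, 0.965 with pud-3 and 0.915 with pud-4, and for pud-3 with pud-4 it was 0.985. Over only the 6 libraries at 20 and 400 µM, it was 0.960 for pud-1.1 with pud-3, 0.704 for pud-1.1 with pud-4 and 0.864 for pud-3 with pud-4. pud-4 was thus the member whose levels above 2 µM were least like the rest.

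Outside the family, the pattern of pud-4 was compared with 5517 tested genes that reached a mean of 10 CPM at 1 dose or more. The 8 genes most like it over the 9 libraries had r of 0.90 to 0.96. T05E7.1 was first (r = 0.96), with 24.3, 23.2 and 21.7 CPM at 2 µM, 78.2, 66.0 and 45.2 CPM at 20 µM, and 71.3, 46.9 and 60.7 CPM at 400 µM. Its 2 µM libraries were below all others, by far smaller steps than those of pud-4. K09C4.1 (r = 0.96) averaged 1.54 CPM at 2 µM, then 15.1 CPM at 20 µM and 12.1 CPM at 400 µM. The short-chain dehydrogenase gene dhs-26 (r = 0.92) averaged 20.4 CPM at 2 µM, then 73.6 CPM at 20 µM and 113.6 CPM at 400 µM. F45D11.15 averaged 17.1, 322 and 144 CPM and F45D11.16 averaged 19.1, 399 and 184 CPM at 2, 20 and 400 µM, both with r = 0.92. tpst-1, which encodes a tyrosylprotein sulfotransferase, also had r = 0.92, and the scavenger receptor gene scav-1 had r = 0.90. The catechol-O-methyltransferase gene comt-4 (r = 0.91) averaged 0.0357 CPM at 2 µM, then 9.37 CPM at 20 µM and 57.8 CPM at 400 µM. Over only the 6 libraries at 20 and 400 µM, r with pud-4 was −0.08 for dhs-26, −0.24 for comt-4 and 0.51 to 0.73 for the other 6.

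For the sum of pud-1.1 and pud-1.2, the 8 most alike genes had r of 0.91 to 0.93 over the 9 libraries, and K09C4.1 and T05E7.1 were among them again. C25E10.8 was first (r = 0.93), averaging 1.09 CPM at 2 µM, then 5.79 CPM at 20 µM and 15.5 CPM at 400 µM. The invertebrate lysozyme gene ilys-5 (r = 0.91) had 4457, 1151 and 1133 CPM at 2 µM, 45400 CPM, 3708 CPM and 1333 CPM at 20 µM, and 12240, 15140 and 10050 CPM at 400 µM. It shared with pud-1 the wide spread at 20 µM with replicate 1 highest, and over the 6 libraries at 20 and 400 µM its r was 0.94. The acid sphingomyelinase gene asm-3 (r = 0.92) had 94.7, 0.854 and 0 CPM at 20 µM, with r of 0.93 over those 6 libraries. For the rest of the 8, r over those 6 libraries was lower, from 0.63 (T05E7.1) to 0.84 (asp-12). The aspartyl protease gene asp-12 averaged 193 CPM at 2 µM, then 979 CPM at 20 µM and 1395 CPM at 400 µM, and the C-type lectin gene clec-52 averaged 13.4, 139 and 874 CPM at those doses, both with r = 0.91. drd-1 also had r = 0.91, averaging 11.9, 49.8 and 59.3 CPM at 2, 20 and 400 µM.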

How the data were processed

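The authors deposited raw counts per gene and FPKM values for each library in 1 table, per the file headers. Bowtie 0.12.2 and WBcel235 are named in the submitters' processing notes; the counting step, its strand setting and the treatment of reads with several matches are not given in the sources used here. Gene positions come from the RefSeq table of WBcel235 and exons from its Ensembl annotation. Protein and promoter sequences were not analysed here.

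A quasi-likelihood model of edgeR 4.0.16 (R 4.3.3) with the 3 doses as levels was fitted to the counts as deposited, with TMM scaling, after filterByExpr. P-values were adjusted by Benjamini-Hochberg over all 13434 genes tested. The script was tested on simulated counts. FPKM values deposited by the authors gave levels per length (in the map), ranks within a library and ratios between genes, and entered no test. A floor of 3 counts corresponds to 0.0369 to 0.0940 CPM. Correlations used log2 CPM with a prior count of 2.

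Named genes were the 6 members, the 8 genes most like pud-4 and the 8 most like the pud-1 sum, up to 4 of each list by smallest p in 2 against 20 µM, and neighbours with a mean of at least 10 CPM. The members, lists and rules were chosen with earlier results of these data known. Alternatives were DESeq2 1.42.0 (size factors, Wald test), limma-voom (limma 3.58.1), other filters, fewer libraries, a replicate block, summed copies, summed near-identical libraries and removal of 18 ribosomal RNA genes. Leaving the pud genes out of library sizes was added after seeing the data.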

Additional observations from a re-analysis of the deposited data

How the results depend on the processing

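For all 6 pud genes the 2 µM libraries lay below the other doses with and without TMM, and every fitted difference with 2 µM kept its sign under the settings run, while the number of the 5 genes called did not. For 2 against 20 µM edgeR called 0, DESeq2 5 and limma-voom 5, and leaving out 1 library gave 0 to 1. For 2 against 400 µM edgeR called 0, DESeq2 5, limma-voom 5, edgeR after requiring 10 CPM in 3 or more libraries 1 and a fit of only the doses compared 5, and leaving out 1 library gave 0 to 3. The cause was not tested. For the 10 CPM filter, the left-out libraries and the replicate block below, the share of all tested genes called was not worked out. With the replicate number as a block, 0 of 5 were called in each comparison, and the log2 difference was −7.32 for pud-1.1 and −10.90 for pud-3 (2 over 20 µM). Across genes, the deviations of same-numbered libraries correlated with r of 0.17 to 0.26 for replicates 1 and 3 but −0.11 to 0.02 for replicate 2, and not every library correlated best with its own number, so the numbers were not taken to pair the libraries.

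For 400 over 20 µM, with nothing called, signs turned. The log2 difference of pud-1.1 was 0.0512 with DESeq2's size factors, 0.0512 by its Wald test, 0.0537 for only the doses compared, 0.0480 with the pud genes out of library sizes, 0.0670 without a filter, 0.19 with the 10 CPM filter, 0.12 for summed copies, 2.19 by limma-voom and 1.81 with the replicate block. In that order, pud-2.1 gave 0.0197, 0.0197, 0.0231, 0.0187, 0.0384, 0.15, 0.0088, 1.67 and 1.29, and pud-3 gave 1.02 by limma-voom and 0.98 with the block. With 1 library left out, pud-1.1 ran from −0.58 to 2.92, pud-1.2 from −0.31 to 3.002, pud-2.1 from −0.61 to 2.11, pud-2.2 from −0.50 to 2.08 and pud-3 from −1.30 to 1.502. The median over all tested genes moved by up to 0.35 without replicate 1 of 20 µM.

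Counts limit only pud-3 and pud-4 at 2 µM (3 to 49 counts). Summing the near-identical replicates 2 and 3 of 2 µM raised the edgeR adjusted p of pud-1.1 to 0.409 for 2 against 20 µM, with a log2 difference of −8.01.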
